A study of Homo sapiens with 7 samples.

Results

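The genes described here make up the MHC class I antigen presentation route, together with the membrane protein BST2, in TE11 cells given diclofenac. TE11 is a human line of esophageal squamous cell carcinoma, and diclofenac is an anti-inflammatory painkiller, a blocker of the cyclooxygenases that make prostaglandins. The 9 members were named outright, not picked by a threshold: the heavy chains HLA-B, HLA-C and HLA-E, the light chain B2M, the peptide transporter subunits TAP1 and TAP2, the loading factor TAPBP, the transactivator NLRC5 and BST2. They are 9 of 60591 rows of the count table, and 8 of them were among the 18311 genes that passed the filter on low counts, TAP1 being the exception. RNA sequencing libraries numbered 3 in the vehicle group, TE11 in 0.07% DMSO, and 4 in the diclofenac group, TE11 in 200 µM diclofenac, all after 48 h. No DMSO percentage was found for the diclofenac group. Both groups were grown in the same serum-containing medium, and the labels name no co-cultured cell, genetic change or cytokine in either.

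MHC class I molecules show peptides from inside the cell to CD8+ T cells. The proteasome cuts proteins into peptides, the TAP1 and TAP2 heterodimer pumps them into the endoplasmic reticulum, tapasin (TAPBP) and its partners load them, and the filled heavy chain travels to the surface with β2-microglobulin (B2M). NLRC5, induced by interferon gamma, is the transactivator that sits on the promoters of this set, and loss of class I expression is a known route by which carcinomas escape T cells. BST2 (tetherin), a separate membrane protein that holds budding enveloped viruses on the cell, is a classical interferon-induced gene.

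The 7 libraries held 19878696 to 26490829 counts each, and 1 count was worth 0.0386 to 0.0487 normalized CPM, the usual CPM scale after TMM scaling. Every pair of libraries within a group differed by more than sampling noise (chi-square over its degrees of freedom, 2.17 to 7.40). Whether a group's libraries came from separate cultures is not stated in the labels, so each p-value reflects the spread between these samples alone, which may be technical. Most of the markers that define squamous epithelium were at or near 0 in these libraries of a line labelled squamous. KRT6A and KRT4 had no count, and KRT5 had 0 counts in vehicle and 1 in diclofenac libraries. KRT14 had 3 and 2, TP63 2 and 5, DSG3 0 and 5, and KRT13 5 and 14. Of the 12 squamous and epithelial markers listed, the 5 that passed the filter were SFN, KRT8, KRT18, CDH1 and EPCAM. Of these, 3 rose and 1 fell (4 and 0 with scaling by total counts alone). SFN was among those that rose, from 1.81 ± 0.240 (SD, n = 3) to 3.68 ± 0.692 (SD, n = 4) normalized CPM (edgeR adjusted p 5.38e-05). The list's summed level, 79.2 to 87.1 normalized CPM in vehicle and 81.8 to 94.2 in diclofenac libraries, was mostly the simple-epithelium keratins KRT18, which fell from 67.8 ± 4.24 (SD, n = 3) to 57.0 ± 2.14 (SD, n = 4) (edgeR adjusted p 4.12e-04, not called with total counts alone), and KRT8, which rose from 9.92 ± 0.981 to 20.4 ± 2.43 (edgeR adjusted p 5.38e-08). The diclofenac response reached most genes: edgeR's quasi-likelihood test called 10937 of the 18311 genes at an adjusted p under 0.05, or 59.7%, with 30.2% higher and 29.5% lower under the drug.

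The promoters of these genes are shown first because class I genes are known for shared control elements close to their start. The set of RefSeq promoters (GRCh38.p14) used here held a start for 7 of the 9 members. HLA-E and NLRC5 had no entry in that set and were not searched. The 250 bases before each start were searched on both strands for 4 kinds of motif, picked after these sequences had been read. They were the paired core of interferon-response elements, written GAAANNGAAA or with a short first copy GAANNGAAA, the NF-kB site (by its name), the core of the cyclic AMP response element TGACG, and the NF-Y box CCAAT. Each line gives, 5′ to 3′ on the gene's own strand, the stretch that holds every match in that window plus up to 4 flanking bases, with matches in capitals. Matches that touch or overlap form a single capital run, which occurs where an NF-kB site reads on both strands in HLA-B and where 2 interferon-type pairs share a core in TAP1, TAP2, TAPBP, B2M and BST2. The stretches are chr6:31272140-31272288 (minus strand) for HLA-C, chr6:31357227-31357360 (minus) for HLA-B, chr15:44711369-44711476 (plus) for B2M, chr6:32853763-32853954 (minus) for TAP1, chr6:32838766-32838806 (minus) for TAP2, chr6:33314079-33314138 (minus) for TAPBP and chr19:17405665-17405860 (minus) for BST2.
HLA-C: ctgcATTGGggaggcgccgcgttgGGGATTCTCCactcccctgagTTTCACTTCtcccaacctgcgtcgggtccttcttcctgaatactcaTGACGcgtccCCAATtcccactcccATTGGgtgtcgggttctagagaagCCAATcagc
HLA-B: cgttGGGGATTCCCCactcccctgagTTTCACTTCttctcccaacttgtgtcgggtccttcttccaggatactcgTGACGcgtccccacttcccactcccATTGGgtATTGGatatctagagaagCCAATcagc
B2M: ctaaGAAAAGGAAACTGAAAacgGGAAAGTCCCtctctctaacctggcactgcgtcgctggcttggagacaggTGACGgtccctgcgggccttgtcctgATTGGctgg
TAP1: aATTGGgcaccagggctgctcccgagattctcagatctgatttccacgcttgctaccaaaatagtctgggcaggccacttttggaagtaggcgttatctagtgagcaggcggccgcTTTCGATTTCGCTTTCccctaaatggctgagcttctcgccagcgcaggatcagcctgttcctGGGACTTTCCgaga
TAP2: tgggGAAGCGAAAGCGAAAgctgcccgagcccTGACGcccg
TAPBP: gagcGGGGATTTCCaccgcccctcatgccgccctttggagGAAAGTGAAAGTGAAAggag
BST2: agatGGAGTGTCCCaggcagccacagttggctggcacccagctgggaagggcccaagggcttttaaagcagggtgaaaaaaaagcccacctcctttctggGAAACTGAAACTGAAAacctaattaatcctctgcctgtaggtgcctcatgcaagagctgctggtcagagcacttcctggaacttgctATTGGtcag
HLA-B and HLA-C held an NF-kB site, an interferon-type pair, TGACG and then CCAAT boxes in that order, with 1 further CCAAT match upstream in HLA-C and with the pair starting 155 and 151 bases before the start. In B2M the pairs began 144 and 138 bases before the start, upstream of the NF-kB site. Those of TAPBP lay much closer, at 20 and 14 bases, and those of BST2 at 130 and 124 bases. The 7 genes have 8 windows, as TAP1 has 2 listed starts. An interferon-type pair of either form was present in 7 of these windows, 1 per gene. Of the 35116 RefSeq promoter windows of the same length, 9.08% held one. The full form GAAANNGAAA was in 5 (TAP1, TAP2, TAPBP, B2M and BST2), against 3.02%. An NF-kB match was present in 6 of the 8, against 5.21%, with TAP2 the only gene that had none. TGACG was found in HLA-B, HLA-C, TAP2 and B2M, against 21.2% of all windows, and CCAAT in 5 windows, against 32%. The window of the second TAP1 start held no match. These matches describe letters, not occupied sites.

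**Figure D1:**
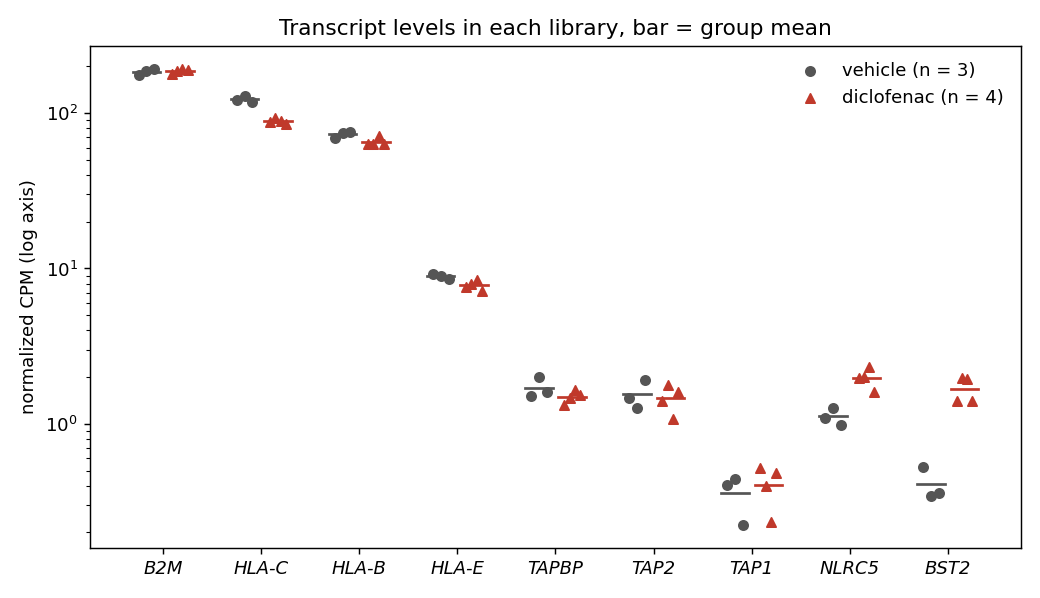
Level of each of the 9 genes in every library, in normalized CPM, with vehicle (n = 3) and diclofenac (n = 4) libraries as separate points and a bar at the group mean. BST2 and NLRC5 points lie higher under diclofenac with no overlap, HLA-C and HLA-E points lie lower with no overlap, and the other 5 genes overlap.

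Under diclofenac, transcripts of the 9 genes did not move together. Among the 8 tested, BST2 and NLRC5 rose, HLA-C and HLA-B fell, and HLA-E, B2M, TAP2 and TAPBP had no call. The share called, 4 of 8, stood beside the background of 59.7%, with 2 higher beside 30.2% and 2 lower beside 29.5%. Libraries of the groups did not overlap for 4 of the 9 (HLA-C, HLA-E, NLRC5 and BST2), beside 58.5% of all tested genes. The members' median log2 fold change was -0.12, beside 0.02 for all tested genes, and it was -0.04 with upper-quartile factors and 0.06 with total counts alone, scalings that raise the median of all genes by 0.09 and 0.18. In bulk libraries a drop in the number of cells carrying a transcript and a drop in the transcript per cell cannot be told apart.

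HLA-C, the classical heavy chain that also serves as a main ligand of KIR receptors on NK cells, showed the clearest fall. It stood at 122, 129 and 118 normalized CPM in vehicle libraries 1 to 3 and at 88.2, 92.4, 89.5 and 84.9 in diclofenac libraries 1 to 4. Every diclofenac library was below every vehicle library, by more than the spread within either group. The means were 123 ± 5.28 (SD, n = 3) and 88.8 ± 3.14 (SD, n = 4), a log2 fold change of -0.47 (SE 0.0459, 95% interval -0.57 to -0.37) or 0.721-fold, with an edgeR adjusted p of 1.10e-07. The direction was the same under all 17 alternatives run for HLA-C, from -0.51 to -0.29, and the call was lost when a change of at least 1.5-fold was required. Among the 2114 tested genes within 0.5 log2 CPM of HLA-C, 55.9% were lower and the median log2 fold change was -0.16.

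HLA-B, the most polymorphic classical heavy chain, moved less. Its values were 69.7, 74.3 and 75.6 normalized CPM in vehicle libraries 1 to 3 and 63.1, 63.1, 71.0 and 63.3 in diclofenac libraries 1 to 4. Diclofenac library 3 stood above the other 3 and above vehicle library 1, so the groups overlapped. The means were 73.2 ± 3.11 (SD, n = 3) and 65.1 ± 3.89 (SD, n = 4), and HLA-B fell by 0.17 on the log2 scale (SE 0.0520, 95% interval -0.28 to -0.06, edgeR adjusted p 0.0101). The call was lost with upper-quartile factors, at -0.08 with an edgeR adjusted p of 0.207, and the value was 0.01 with total counts alone. Among the 2594 tested genes within 0.5 log2 CPM of HLA-B, 47.3% were called lower and 21.9% higher, with a median log2 fold change of -0.10.

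HLA-E, a nonclassical heavy chain that shows leader peptides of other class I molecules to the NK receptor CD94/NKG2A, was measured at 9.26, 9.003 and 8.54 normalized CPM in vehicle libraries and at 7.61, 7.90, 8.45 and 7.14 in diclofenac libraries. All 4 diclofenac libraries lay below all 3 vehicle libraries, although diclofenac library 3 came close to vehicle library 3. The log2 fold change was -0.20 (SE 0.0880, 95% interval -0.38 to -0.01), with an unadjusted p of 0.0359 and an edgeR adjusted p of 0.0588, so it was not called. It passed the threshold with DESeq2 size factors (adjusted p 0.0488) and without diclofenac library 3 (edgeR adjusted p 0.0317). Genes at the level of HLA-E leaned the other way: of 1677, 38.5% were called higher and 21.2% lower.

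B2M, the light chain that HLA heavy chains need in order to fold, was at 176, 185 and 191 normalized CPM in vehicle libraries and at 178, 187, 193 and 189.6 in diclofenac libraries. The groups lay over each other. The log2 fold change was 0.02 (SE 0.0458, 95% interval -0.08 to 0.12, edgeR adjusted p 0.71). With total counts alone B2M was called higher, at 0.20 with an edgeR adjusted p of 6.28e-04, a value equal to the median of all genes under that scaling. Of the 1113 tested genes within 0.5 log2 CPM of B2M, 67.4% were lower and 12% were higher.

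Ratios between members within a library do not depend on how libraries are scaled, and 5 were compared with 2-sided exact permutation tests over the 35 assignments of the 7 libraries, for which the smallest possible p is 0.0286. The log2 ratio of HLA-B to HLA-C was -0.81, -0.79 and -0.65 in vehicle libraries and -0.48, -0.55, -0.34 and -0.42 in diclofenac libraries. No vehicle ratio reached the diclofenac range, and the difference of 0.30 had an exact p of 0.0286 (0.0476 after Benjamini-Hochberg adjustment over the 5 ratios), so HLA-C was lower relative to HLA-B under diclofenac. The log2 ratio of HLA-B to B2M was -1.34, -1.32 and -1.34 in vehicle libraries and -1.497, -1.57, -1.44 and -1.58 in diclofenac libraries. Every diclofenac library was again lower, with a difference of -0.19 between the means (exact permutation p 0.0286, adjusted 0.0476). HLA-B was thus lower relative to B2M, whichever scaling is used for the libraries.

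The heavy-chain genes share long near-identical stretches, so counting could split reads between them and their pseudogenes. The 12 class I pseudogene rows held 115 counts in the vehicle and 151 in the diclofenac libraries together. Adding them to a heavy chain's own row gave -0.47 for HLA-C, -0.17 for HLA-B and -0.19 for HLA-E on the log2 scale, with the same calls as before. HLA-B and HLA-C held 4934 and 8299 vehicle counts, so so few added counts could hardly move their values. Reads shared among HLA-B, HLA-C and HLA-E themselves were not examined. Their part in the HLA-B to HLA-C ratio was not tested. In the GENCODE annotation, release 29, the HLA-B gene span runs over HLA-C, and their exons share 35 bases.

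TAP1 and TAP2, the ATP-driven subunits of the peptide transporter, were both scarce. TAP1 gave 10, 9 and 5 counts in vehicle libraries and 11, 10, 6 and 12 in diclofenac libraries, too few to pass the filter. Library 3 was the lowest in each group, and the groups overlapped. From 24 vehicle and 39 diclofenac counts the ratio of rates was 1.13, with an exact Poisson interval of 0.660 to 1.96 (95%) that covers counting error only, so a change smaller than these bounds was not detectable at this depth. With no filter the log2 fold change of TAP1 was 0.15 (SE 0.397, edgeR adjusted p 0.816). Where TAP1 passed the filter with a library left out, it was 0.29 without vehicle library 1, 0.32 without vehicle library 2 and -0.08 without vehicle library 3, with no call (edgeR adjusted p 0.569 to 0.883).

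TAP2 was at 1.46, 1.27 and 1.92 normalized CPM in vehicle and at 1.41, 1.78, 1.08 and 1.61 in diclofenac libraries. Vehicle library 3 was the highest of the 7 and diclofenac library 3 the lowest, and the groups overlapped fully in between. The log2 fold change of -0.08 (SE 0.209, 95% interval -0.52 to 0.36, edgeR adjusted p 0.753) turned positive without either of those libraries (0.09 and 0.05), with upper-quartile factors (0.01) and with total counts alone (0.10). The log2 ratio of TAP1 to TAP2 was -2.09 ± 0.792 (SD, n = 3) in vehicle and -1.84 ± 0.351 (SD, n = 4) in diclofenac libraries, with an exact permutation p of 0.686.

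TAPBP (tapasin), which bridges empty class I molecules to the transporter, was at 1.503, 2.00 and 1.61 normalized CPM in vehicle libraries and at 1.31, 1.46, 1.66 and 1.52 in diclofenac libraries. Vehicle library 2 stood above the rest, and the other 6 were interleaved. The log2 fold change was -0.18 (SE 0.179, 95% interval -0.55 to 0.20, edgeR adjusted p 0.415), 0.0044 with total counts alone and -0.06 without vehicle library 2. TAPBP and TAP2 rested on few reads, 28 to 43 and 26 to 45 counts per library, and of the 1609 tested genes at the level of TAPBP 37.5% were called higher and 9.32% lower. Relative to B2M, TAPBP differed by -0.21 on the log2 scale (exact permutation p 0.114, adjusted 0.143), and by -0.09 without vehicle library 2.

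The other parts of the peptide route showed calls in both directions. The counts in this and later lists stand beside 30.2% of all tested genes called higher and 29.5% lower. With upper-quartile factors 6994 of the 18311 genes were higher and 4171 lower, and with total counts alone 8635 and 3029. Of 12 further genes of peptide supply and loading, 4 rose and 4 fell, with a median log2 fold change of 0.07, and with upper-quartile factors or total counts alone 7 rose and 3 fell. ERAP2, an aminopeptidase that trims peptides in the endoplasmic reticulum, rose from 1.42 ± 0.219 (SD, n = 3) to 3.56 ± 0.241 (SD, n = 4) normalized CPM, a log2 fold change of 1.33 (SE 0.156, edgeR adjusted p 9.81e-07). THOP1, a cytosolic peptidase that destroys peptides before transport, fell from 305 ± 19.9 to 208 ± 10.1 normalized CPM, a log2 fold change of -0.56 (edgeR adjusted p 6.98e-08).

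Of the interferon-inducible catalytic subunits of the immunoproteasome, PSMB8 had 0 counts in vehicle and 1 in diclofenac libraries, and PSMB9, which shares a bidirectional promoter with TAP1, had 2 and 5. PSMB10 was at 1.84 ± 0.0556 (SD, n = 3) and 1.78 ± 0.204 (SD, n = 4) normalized CPM, a log2 fold change of -0.04 with an edgeR adjusted p of 0.850. PSME1, a subunit of the PA28 activator, fell from 30.1 ± 2.39 to 20.1 ± 1.51 normalized CPM, a log2 fold change of -0.57 (edgeR adjusted p 1.44e-06). Of the 6 immunoproteasome and PA28 genes, 4 were tested and 3 of them fell (2 with upper-quartile factors or total counts alone). All 3 constitutive counterparts also fell, PSMB5 from 248 ± 11.1 to 147 ± 6.04 normalized CPM with a log2 fold change of -0.75 (edgeR adjusted p 4.76e-10), and all 3 fell with total counts alone.

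**Figure D2:**
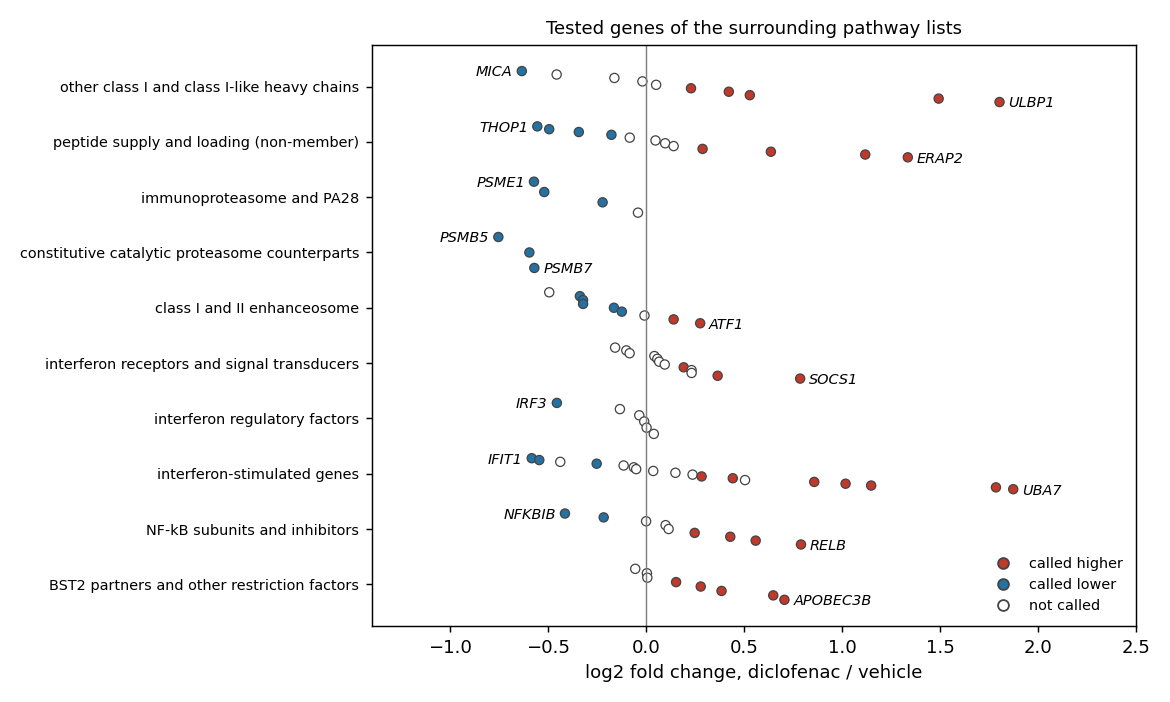
Log2 fold change (diclofenac against vehicle, TMM scaling) of every tested gene in 10 lists around the members, 1 point per gene, red where called higher, blue where called lower and open where not called. The 4 tested immunoproteasome and PA28 genes and the 3 constitutive proteasome subunits all lie below 0, and the other lists hold genes on both sides.

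NLRC5, the transactivator of class I genes, rose. NLRC5 was at 1.10, 1.27 and 0.983 normalized CPM in vehicle libraries and at 1.97, 2.01, 2.31 and 1.61 in diclofenac libraries, from 75 counts in the first group and 193 in the second. The lowest diclofenac library was above the highest vehicle library. The means of 1.12 ± 0.142 (SD, n = 3) and 1.98 ± 0.291 (SD, n = 4) gave a log2 fold change of 0.83 (SE 0.193, 95% interval 0.42 to 1.24), or 1.78-fold, with an edgeR adjusted p of 0.00125. NLRC5 was called higher under all 16 alternatives run for it, from 0.74 to 1.01. Among the 1596 tested genes of similar level, 37.8% were also called higher and the median log2 fold change was 0.28.

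Set against B2M, a known target, within each library, the log2 ratio of NLRC5 to B2M was -7.30, -7.17 and -7.57 in vehicle and -6.48, -6.53, -6.37 and -6.87 in diclofenac libraries. The groups did not overlap, and the difference was 0.79 (exact permutation p 0.0286, adjusted 0.0476). NLRC5 was higher and HLA-C lower in all 4 diclofenac libraries, while HLA-B in diclofenac library 3 lay within the vehicle range. A relation between NLRC5 and the levels of the heavy chains was not tested. The annotated antisense gene beside NLRC5 had 0 vehicle counts and 1 diclofenac count.

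NLRC5 works with the RFX complex, NF-Y and CREB or ATF1 on class I promoters. Of 9 genes of this assembly and its class II counterpart CIITA, 2 rose and 5 fell, and with total counts alone 3 rose and 2 fell. RFXANK, the ankyrin subunit of RFX, fell from 83.0 ± 4.30 to 65.6 ± 2.36 normalized CPM, a log2 fold change of -0.34 (edgeR adjusted p 9.72e-06). ATF1 rose from 35.4 ± 3.79 to 42.7 ± 2.48, a log2 fold change of 0.28 (edgeR adjusted p 0.00184). CIITA, the master switch of class II genes, was at 0.736 ± 0.068 and 0.525 ± 0.115 normalized CPM, with a log2 fold change of -0.49 and an edgeR adjusted p of 0.122. Of 7 NLR family relatives of NLRC5, 4 were tested, 2 rose and 1 fell (also with total counts alone). NLRC3, a regulator that dampens innate signalling, rose from 0.906 ± 0.111 to 1.77 ± 0.184 normalized CPM, a log2 fold change of 0.96 (edgeR adjusted p 3.87e-04), while the mitochondrial NLRX1 fell by 0.38 (edgeR adjusted p 3.68e-05).

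BST2 showed the largest change of the 8 tested members, under each alternative run for it. Its values were 0.528, 0.341 and 0.358 normalized CPM in vehicle libraries 1 to 3 and 1.41, 1.97, 1.93 and 1.40 in diclofenac libraries 1 to 4, from 28 counts in the first group and 165 in the second. The lowest diclofenac library stood well above the highest vehicle library, and within the diclofenac group libraries 2 and 3 were higher than 1 and 4. The means of 0.409 ± 0.104 (SD, n = 3) and 1.68 ± 0.315 (SD, n = 4) gave a log2 fold change of 2.01 (SE 0.263, 95% interval 1.46 to 2.57), or 4.04-fold, with an edgeR adjusted p of 3.54e-06. It was called higher under all 16 alternatives run for it, from 1.84 to 2.25, and 35% of the 1761 tested genes of similar level were called higher.

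BST2 shares its start region with the divergent noncoding gene BISPR. Raw counts of BISPR summed to 6 over the 3 vehicle and 23 over the 4 diclofenac libraries. The BST2 neighbour MVB12A had 1711, 1374 and 1515 raw counts in vehicle libraries and 1048, 1292, 1385 and 1274 in diclofenac libraries. Of 10 BST2 partners and other restriction factors, 8 were tested, 5 rose and none fell, beside 30.2% of all tested genes called higher. With total counts alone all 8 rose, under a scaling that called 8635 of the 18311 genes higher and 3029 lower. APOBEC3B, a cytidine deaminase that restricts viruses and mutates tumour DNA, rose from 3.15 ± 0.253 to 5.15 ± 0.206 normalized CPM, a log2 fold change of 0.71 (edgeR adjusted p 4.41e-05).

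**Figure D3:**
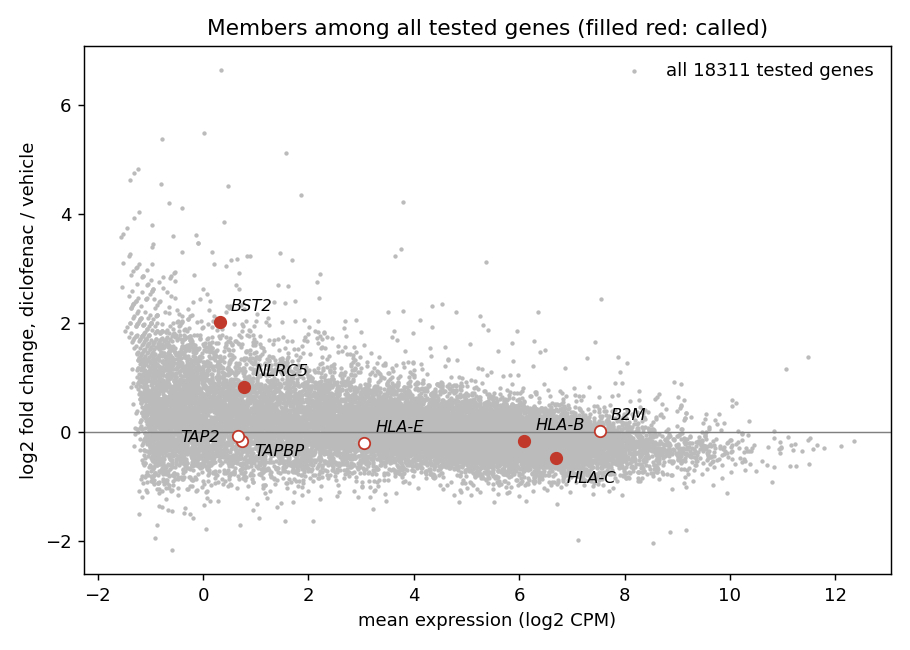
Log2 fold change (diclofenac against vehicle) against mean log2 CPM for all 18311 tested genes, with the 8 tested members named. BST2, at 2.01, and NLRC5, at 0.83, lie in the low-count range, and HLA-C, at -0.47, lies among abundant genes.

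Because BST2, NLRC5, TAP1, B2M and the heavy chains are all interferon targets, the interferon route was read beside them. Of 8 interferon genes none was tested, and 5 were at 0 in all libraries. IFNB1 had 0 counts in vehicle and 3 in diclofenac libraries. Of the 12 receptors and signal transducers reported, 3 rose and none fell (8 and 0 with total counts alone or upper-quartile factors). SOCS1, a feedback inhibitor, rose by 0.79 log2 units (edgeR adjusted p 0.00949).

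IRF1, a transcription factor of class I promoters, was at 5.29 ± 0.251 (SD, n = 3) and 5.42 ± 0.323 (SD, n = 4) normalized CPM, a log2 fold change of 0.04 with an edgeR adjusted p of 0.764. IRF3, which drives type I interferon genes, fell by 0.46 log2 units (edgeR adjusted p 1.65e-06), the only call among 6 tested interferon regulatory factors, also with total counts alone. Of 35 interferon-stimulated genes, 18 were tested, 7 rose and 3 fell, with a median log2 fold change of 0.19 (10 and 2 with total counts alone). UBA7, the activating enzyme for ISG15, rose from 0.682 ± 0.0526 to 2.52 ± 0.347 normalized CPM, a log2 fold change of 1.87 (edgeR adjusted p 3.86e-07), and IFIT1, a sensor of foreign RNA caps, fell from 8.81 ± 1.24 to 5.87 ± 0.661, a log2 fold change of -0.58 (edgeR adjusted p 2.36e-04). Calls among stimulated genes, like those among the members, therefore ran in both directions.

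Of 9 NF-kB subunits and inhibitors, 4 rose and 2 fell (7 and 1 with total counts alone). RELB, the subunit of the noncanonical route, rose from 3.53 ± 0.353 to 6.08 ± 0.167 normalized CPM, a log2 fold change of 0.79 (edgeR adjusted p 7.79e-06), and the inhibitor NFKBIB fell by 0.41 (edgeR adjusted p 1.90e-04). Of 10 genes of nucleic acid sensing in the table, 6 were tested, 2 rose and 2 fell (2 and 0 with upper-quartile factors, 4 and 0 with total counts alone), with IFIH1 at 0.37 (edgeR adjusted p 0.00377) and the adaptor MAVS at -0.16 (edgeR adjusted p 0.00637, lost at 0.02 with total counts alone). Of 6 genes of class I surface turnover, 5 were tested and 2 fell, among them MARCHF9, a ubiquitin ligase, at -0.14 (edgeR adjusted p 0.0196), while with total counts alone none fell and 3 rose.

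Calls among heavy chains outside the members were mostly higher. Of 15 other class I and class I-like heavy chains, 10 were tested, 5 rose and 1 fell (6 and 1 with total counts alone). Among all tested genes 30.2% were called higher and 29.5% lower. ULBP1, a stress ligand of the NK receptor NKG2D, rose from 1.58 ± 0.163 to 5.48 ± 0.587 normalized CPM, a log2 fold change of 1.80 (edgeR adjusted p 1.05e-08), and MICA, another NKG2D ligand, fell from 3.60 ± 0.234 to 2.33 ± 0.239, a log2 fold change of -0.64 (edgeR adjusted p 5.72e-04). HLA-F was at 1.83 ± 0.344 (SD, n = 3) and 1.34 ± 0.293 (SD, n = 4) normalized CPM, a log2 fold change of -0.46 that was not called (edgeR adjusted p 0.0594). HLA-G had 1 count in each group. Of 11 class II presentation genes, 3 were tested and 2 rose (2 with total counts alone), CD74, the invariant chain, by 1.73 log2 units from 20 to 97 counts (edgeR adjusted p 0.00141).

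Markers of other cells moved beside these values. Of 10 leukocyte markers, 3 were tested, 2 rose (3 with total counts alone) and none fell (their summed level was 4.48 to 5.32 normalized CPM in vehicle and 6.20 to 6.98 in diclofenac libraries). The B cell receptor component CD79A went from 5 to 56 counts (edgeR adjusted p 1.88e-04), while the pan-leukocyte PTPRC had 2 counts in vehicle and 6 in diclofenac libraries, and 4 of the 10 had under 10 counts in all. Of 10 fibroblast and endothelial markers, 3 were tested, COL1A1 fell by 0.44 log2 units and none rose (1 rose with total counts alone). COL3A1 and PDGFRB leaned the other way, at 0.36 and 0.38 log2 units, with no call (edgeR adjusted p 0.162 and 0.503). The list's summed level, mostly COL1A1, was 17.3 to 20.1 normalized CPM in vehicle and 14.4 to 16.2 in diclofenac libraries. The part of such cells in the members' values was not tested.

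**Figure D4:**
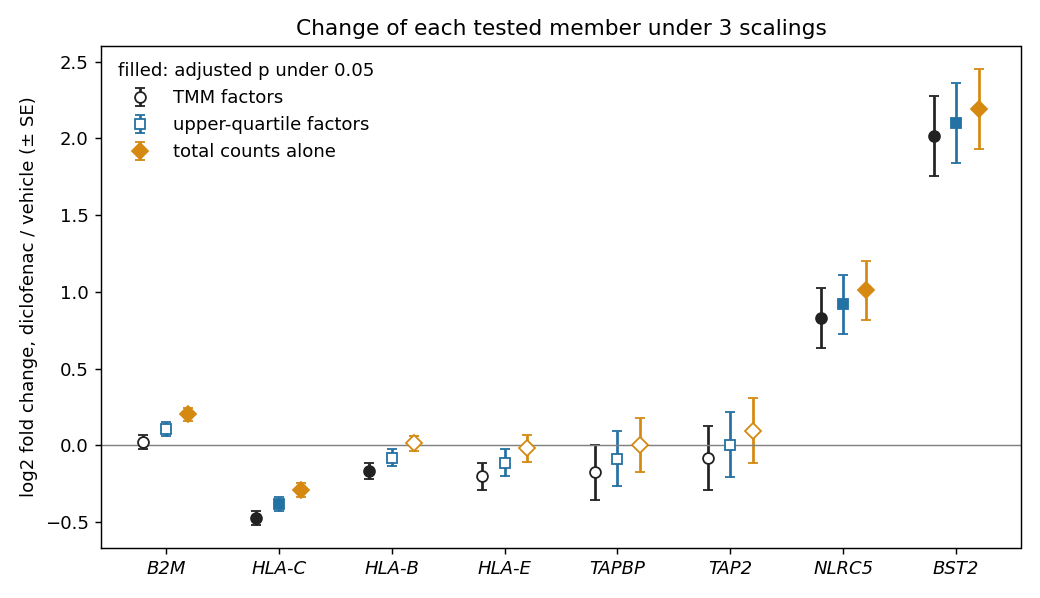
Log2 fold change of each tested member under 3 scalings of the libraries (TMM, upper quartile and total counts alone), with standard errors and filled markers where the adjusted p was under 0.05. BST2, NLRC5 and HLA-C keep sign and call under all 3, while HLA-B moves from -0.17 to 0.01.

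Levels can be compared between genes only per length, here as normalized CPM per kb of all annotated exons (GENCODE release 29). In vehicle libraries HLA-C led at 49.1 ± 2.11 (SD, n = 3), followed by B2M at 30.3 ± 1.24, HLA-B at 24.0 ± 1.02 and HLA-E at 3.00 ± 0.123, each apart from the next. BST2 at 0.365 ± 0.0926, TAPBP at 0.337 ± 0.0512 and TAP2 at 0.243 ± 0.0528 formed a group in which BST2 overlapped TAPBP and TAPBP overlapped TAP2. NLRC5 at 0.0900 ± 0.0114 and TAP1 at 0.0741 ± 0.0241 overlapped and were the lowest. Diclofenac libraries kept the same order, with HLA-C at 35.4 ± 1.254 (SD, n = 4), B2M at 30.8 ± 1.06, BST2 at 1.501 ± 0.282 and TAPBP at 0.295 ± 0.0283. The order rests on which exons count: per kb of the longest principal transcript, B2M at 108 stood above HLA-C at 80.1 in vehicle libraries, and BST2 at 0.401 stood below TAPBP and TAP2.

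The 3 genes outside the lists whose level followed each of 3 members most closely over the 7 libraries were taken by Pearson's r of log2 normalized CPM among 18184 genes, as a description. The difference between the groups was not removed first, so r includes it, above all for BST2, which changed most. For BST2 they were AC016773.2 (0.998), FOXA3 (0.997) and TMCO3 (0.996), and 1042 genes passed 0.95. For HLA-B they were ITGB1BP2 (0.981), RAB6B (0.981) and LDHBP2 (0.977), with 28 past 0.95. For B2M they were DARS-AS1 (0.968), POLH-AS1 (0.961) and CENPU (0.959), with 5 past 0.95.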

How the data were processed

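RNA of 7 TE11 libraries was sequenced, from total RNA purified on columns and, per the labels' protocols, a directional library kit. The authors deposited raw counts per gene, whole numbers with no normalization. The aligner, counter, annotation and use of strand are not given in the sources used here, so overlapping and antisense genes cannot be told apart with certainty. DESeq (version not given) and GRCm38, a mouse build, are listed in the submitters' processing notes, although the rows carry human symbols.

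Genes were filtered with filterByExpr (minimum count 10, minimum total 15), which kept 99.9% of counts, scaled by TMM and tested in R 4.3.3 with edgeR 4.0.16 (quasi-likelihood), with group as the only term and Benjamini-Hochberg adjustment over all 18311 genes. A call is an adjusted p under 0.05. The script was tested on simulated counts. Ratios used counts plus 0.5. Alternatives used DESeq2 1.42.0 and limma 3.58.1. The samples came from the labels, and 35 assignments limit exact permutation tests. Named genes were all members, the largest called rise and fall of each of 18 lists, and a few fixed genes. The fixed genes were IRF1, CIITA, PSMB8, PSMB9, PSMB10, HLA-F and HLA-G. PTPRC, COL3A1, PDGFRB, the other epithelial markers, IFNB1 and the neighbours of members were named after their values were seen. A further gene of the interferon route is not reported here. The members and lists were chosen with earlier results of these data known. Promoters are from RefSeq GRCh38.p14, and exon lengths from GENCODE release 29.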

Additional observations from a re-analysis of the deposited data

Results flagged for a closer look

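In the diclofenac group, HLA-B of library 3 stood apart from the other 3. Its value of 71.0 normalized CPM lay above 63.1, 63.1 and 63.3, and the gap to the nearest of them was 0.972 of the group's whole range, past Dixon's 95% critical value for 4 samples. Of 14 groups of values looked at in this way, 1 was flagged, and chance alone flags about 1 in 20. HLA-C, HLA-E and B2M in the same library were not flagged.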

How the results depend on the processing

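BST2 and NLRC5 kept their direction and call under all 16 alternatives run for each, and HLA-C its direction under all 17. With upper-quartile factors HLA-B was at -0.0791 (edgeR adjusted p 0.207), TAP2 at 0.0057, the members' median at -0.0367, and 1 member was lower. With total counts alone HLA-B was at 0.0133, B2M at 0.2022, TAP2 at 0.0974, TAPBP at 0.0044 and the members' median at 0.0553, with 1 member lower and 8635 genes higher and 3029 lower. With DESeq2 size factors HLA-E was at -0.2096 (adjusted p 0.0488), and with no filter B2M was at -0.0027. A minimum change of 1.5-fold left 3575 genes (2487 higher, 1088 lower) and 0 members lower, with HLA-B at -0.1674 and HLA-C at -0.471 no longer called. The cause of these differences was not tested.

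Leaving out each library in turn gave -0.0156 to 0.0472 for B2M, -0.2044 to 0.0901 for TAP2 (positive without vehicle library 3 and, at 0.048, without diclofenac library 3), -0.2672 to -0.061 (without vehicle library 2) for TAPBP, -0.2429 to -0.1556 for HLA-E and -0.1532 to -0.061 for the members' median. B2M turned negative without vehicle library 1. The log2 ratio differences ran from 0.2642 to 0.3529 for HLA-B to HLA-C, from -0.2166 to -0.171 for HLA-B to B2M, from 0.6749 to 0.8888 for NLRC5 to B2M, from -0.2682 to -0.0918 (without vehicle library 2) for TAPBP to B2M, and from -0.199 (without vehicle library 3) to 0.5527 for TAP1 to TAP2. With a library left out the smallest possible exact p is 0.0667 or 0.1, so no ratio could be called.

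Replicate numbers are shared by the groups in the labels but did not pair the libraries: correlations of same-numbered deviations were 9e-04, 0.0216 and -0.0474, within the range over all pairs of -0.0634 to 0.0721. With the number as a replicate block 9831 genes were called, and no member's call changed. Within same-numbered pairs the ratio differences were 0.2931, -0.171 and 0.8888, where the smallest possible exact p is 0.25.

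Per kb of the longest principal transcript, an alternative chosen after seeing the data, vehicle levels were 47.3 for HLA-B, 80.1 for HLA-C, 3.43 for HLA-E, 108 for B2M, 0.120 for TAP1, 0.621 for TAP2, 0.902 for TAPBP and 0.163 for NLRC5 normalized CPM. Low counts limit TAP1, TAP2, TAPBP, NLRC5 and BST2.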

Other observations

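Among class I-like genes that the account of the members does not describe, MR1, which presents vitamin B metabolites to MAIT cells, rose from 6.90 ± 0.304 (SD, n = 3) to 19.4 ± 1.33 (SD, n = 4) normalized CPM, a log2 fold change of 1.49 (SE 0.0815, edgeR adjusted p 9.91e-11). ERAP1, the partner of ERAP2 in trimming, rose from 7.88 ± 0.112 to 12.3 ± 1.34 normalized CPM, a log2 fold change of 0.64 (edgeR adjusted p 1.27e-05). TAPBPL, a peptide editor related to tapasin, rose by 1.12 log2 units from 19 to 60 counts (edgeR adjusted p 0.00871). The chaperone CALR fell from 1066 ± 49.0 to 756 ± 30.3 normalized CPM, a log2 fold change of -0.50 (edgeR adjusted p 1.39e-07). These 4 genes were chosen after their values were seen.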
